A study of Mus musculus with 16 samples.

Results

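Fatty acid oxidation in mitochondria and peroxisomes was followed in mouse liver through 38 genes, taken by symbol from a table of 23420 genes. All 38 were found in the table. By their products, 14 are mitochondrial, 15 are peroxisomal and 2 (Eci2 and Ech1) belong to both compartments, while 3 serve fatty acid supply (Acsl1, Slc27a2 and Fabp1) and 4 are regulators or govern fuel choice (Ppara, Creb3l3, Pdk4 and Ucp2). The samples were the livers of 16 wild-type C57BL/6J males, all on a 45% high-fat diet (HFD), with 4 mice in each of 4 groups. The groups were HFD for 7 days, HFD with 0.04% fenretinide (FEN-HFD) for 7 days, HFD for 20 weeks and FEN-HFD for 20 weeks. Fenretinide is a synthetic retinoid. Ages are not given in the sources used here, and the mice of both durations were separate animals. Duration, age and cohort thus cannot be told apart.

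A fatty acid is activated to its coenzyme A ester and then shortened in repeated rounds of oxidation, hydration, oxidation and thiolysis. Mitochondria carry out most of this for short, medium and long chains and pass the electrons to the respiratory chain, whereas peroxisomes shorten very long and branched chains and pass the electrons of their first step to oxygen. In liver both sets of enzymes belong to the known targets of PPARα, a nuclear receptor for fatty acids, and rodent peroxisomes multiply when it is activated.

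Total counts ran from 19218230 to 32546829 per library, of which the 38 genes took between 1.63% and 2.74% when the ribosomal RNA gene Rn45s was left out. FEN-HFD mouse 29 (20 weeks) stood apart, since Rn45s took 53.1% of its counts, against 0.466% to 1.46% in the other 15 libraries. HFD mouse 45 (20 weeks) held 79 counts of Adipoq, 61 of Plin1, 42 of Lep and 13 of Retn, transcripts of fat cells, against at most 3, 2, 1 and 1 in any other library. Levels are given in CPM, counts scaled to library size with TMM over all 16 libraries, in the order of the mouse numbers. Fold changes are from edgeR's quasi-likelihood test, scaled within each comparison, and a gene was called when its p-value, adjusted over all genes tested, was under 0.05. In whole liver, fewer cells of a type and less RNA per cell cannot be told apart.

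Per kilobase of exon, Fabp1, the fatty acid binding protein of the liver cytosol, had the highest level of the set, at 8857 CPM per kilobase on average over the 16 livers. Phyh, which starts the α-oxidation of branched chains, followed at 1096 CPM per kilobase. Slc27a2, a fatty acid transporter and very long chain acyl-CoA synthetase, stood at 784 CPM per kilobase, the mitochondrial thiolase Acaa2 at 774 and the peroxisomal thiolase Acaa1b at 768. The order of these 3 was not fixed, since Acaa1b was the lowest of them in the 7-day HFD mice, at 507 CPM per kilobase, and the highest in the 20-week HFD mice, at 1352. At the lower end were Abcd2, a peroxisomal transporter of very long chain acyl-CoA, at 4.65 CPM per kilobase, Pdk4 at 2.06 and Hao2 at 0.579. The spread between mice of 1 group was small for most enzymes. Acadl, the long-chain acyl-CoA dehydrogenase, had a coefficient of variation of 3.9% to 9.7% over the 4 groups, whereas that of Abcd2 was 39.9% to 74.0%.

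**Figure D1:**
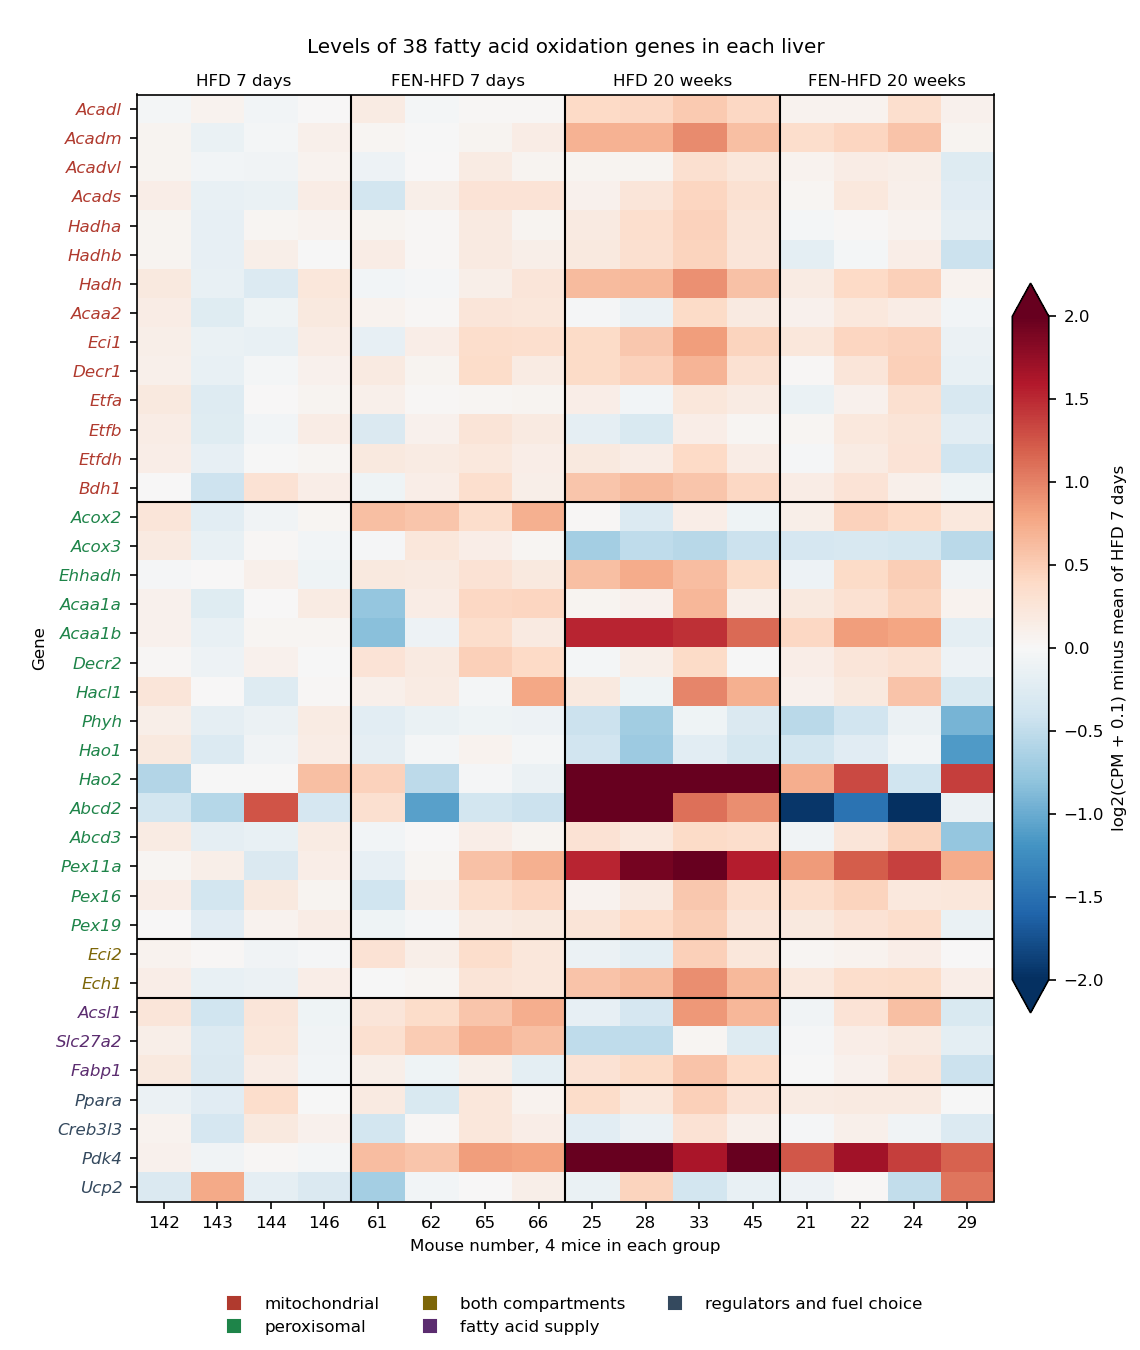
Heat map of the 38 genes (rows, coloured by compartment or role) in the 16 livers (columns, by mouse number and group). Colour is log2(CPM + 0.1) minus the mean of the 4 HFD mice at 7 days, with the scale ending at -2 and 2; red prevails among the HFD mice at 20 weeks, with Hao2, Abcd2, Pex11a, Acaa1b and Pdk4 the deepest, and FEN-HFD mouse 29 is the lowest of its group in 13 of the 14 mitochondrial rows.

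The comparison of HFD at 20 weeks with HFD at 7 days asked how the genes differed with longer feeding. Of the 38 genes, 11 rose and 1 fell by edgeR, where 4.78% of the 13255 genes tested rose and 2.73% fell. DESeq2 called 16 higher and limma-voom 13, where they called 7.39% and 5.76% of all genes they tested higher. Each called 2 of the 38 lower, both peroxisomal, where DESeq2 called 688 and limma-voom 505 of all genes lower. By edgeR 5 of the 14 mitochondrial genes rose and none fell. Of the 15 peroxisomal genes, 4 rose and 1 fell, and Ech1 and Pdk4 were the other genes that rose. The median log2 fold change was 0.29 for the mitochondrial and 0.29 for the peroxisomal genes, against -0.01 for all genes tested. All 4 mice at 20 weeks lay above all 4 at 7 days in 18 of the 38 genes and below them in 1, where 9.63% and 7.33% of all genes tested did so.

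Among the mitochondrial enzymes the widest difference was in Acadm, the medium-chain acyl-CoA dehydrogenase (chr3:153922353-153944643, mm10). Its level was 292, 256, 273 and 300.3 CPM in the HFD mice at 7 days and 455, 456, 542 and 424 CPM in those at 20 weeks. The groups did not overlap. The FEN-HFD mice at 20 weeks, at 355, 378.5, 418 and 292 CPM, were all below the HFD mice of that time, and the lowest of them lay within the 7-day range. Acadm rose by 0.73 on the log2 scale (SE 0.10, edgeR adjusted p = 0.0044). Hadh, which catalyses the third step for short and medium chains, rose by 0.67 (SE 0.13, edgeR adjusted p = 0.0171), from 283 ± 48.2 to 456 ± 50.004 CPM (SD, n = 4). Acadl, with 4 values from 168 to 183 CPM at 20 weeks and from 123 to 134 CPM at 7 days, rose by 0.42 (SE 0.07, edgeR adjusted p = 0.0094). These 3 calls held when any 1 mouse was left out.

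Among the mitochondrial genes, the auxiliary enzymes of unsaturated chains Eci1 and Decr1 rose too, by less certain margins. Eci1, an enoyl-CoA isomerase, was at 115 ± 12.4 CPM at 7 days and 169 ± 24.6 CPM at 20 weeks (SD, n = 4), a rise of 0.54 on the log2 scale (SE 0.12, edgeR adjusted p = 0.0237). Without HFD mouse 28, 142 or 144 it was not called, with an adjusted p of up to 0.0631 from edgeR. Decr1, the 2,4-dienoyl-CoA reductase, rose by 0.45 (SE 0.10, edgeR adjusted p = 0.0329). Its call was lost without HFD mouse 25, 28 or 33 and without any 1 of the 7-day mice, with an adjusted p of up to 0.0801 from edgeR. The 9 other mitochondrial genes were not called by edgeR, whereas DESeq2 also called Bdh1, Hadha and Hadhb higher and limma-voom also called Bdh1. The nearest in edgeR was Bdh1, which makes the ketone body 3-hydroxybutyrate, with a log2 fold change of 0.50 (edgeR adjusted p = 0.0608), which was 0.0468 without HFD mouse 144. Etfa and Etfb, which carry electrons from the dehydrogenases, differed by 0.09 and -0.09 on the log2 scale.

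Hadha and Hadhb encode the subunits of the mitochondrial trifunctional protein and lie head to head on chromosome 5. Their levels were 394 ± 28.4 and 169 ± 13.4 CPM in the 7-day HFD mice and 489 ± 40.6 and 209 ± 15.7 CPM in the 20-week HFD mice (SD, n = 4). Their log2 fold changes were close, at 0.30 and 0.29, with edgeR adjusted p-values of 0.0943 and 0.0864, and in both genes the groups did not overlap. By annotation 16.7% of the 75-base stretches of Hadhb also occur in another gene, mostly the pseudogene Gm13910, so its counts are uncertain. The bases from the start of Hadha (minus strand) to the start of Hadhb (plus strand), chr5:30154980-30155253 in GRCm38.p6 (RefSeq), are shown on the plus strand because this 1 stretch lies before both subunits. It holds no AGGTCA, the core site of nuclear receptors, on either strand, so nothing stands in capitals.
Hadha and Hadhb: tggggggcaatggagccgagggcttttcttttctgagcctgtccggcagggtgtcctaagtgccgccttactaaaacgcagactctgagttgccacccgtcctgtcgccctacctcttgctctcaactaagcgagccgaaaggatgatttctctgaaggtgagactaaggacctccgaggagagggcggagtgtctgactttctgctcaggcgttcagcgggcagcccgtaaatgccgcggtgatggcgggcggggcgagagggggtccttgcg

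The peroxisomal gene with the most counts behind its rise was Acaa1b (chr9:119148043-119157093), a 3-ketoacyl-CoA thiolase. It was at 905, 769, 875 and 874 CPM in the 7-day HFD mice and at 2443, 2463, 2361 and 1869 CPM in the 20-week HFD mice. Every 20-week mouse lay far above the highest 7-day mouse, and Acaa1b rose by 1.40 on the log2 scale (SE 0.12, edgeR adjusted p = 0.0005). Its near copy Acaa1a (chr9:119341028-119350296), which encodes the same activity, was at 189, 151, 179 and 199.96 CPM at 7 days and at 185, 189.6, 283 and 194 CPM at 20 weeks. These values overlapped, and the log2 fold change of 0.23 was not called (edgeR adjusted p = 0.36). Of the 75-base stretches of Acaa1b, 24.4% also occur in Acaa1a, and 13.3% of its exonic length lies opposite an exon of Dlec1, so that some of the counts of these genes are uncertain. The promoters from RefSeq (GRCm38.p6, 250 bases before to 50 after the start) are shown because the copies differed in response: chr9:119341044-119341343 on the plus strand and chr9:119157044-119157343 on the minus strand. Their longest common run is 8 bases, and neither holds AGGTCA on either strand, so nothing stands in capitals.
Acaa1a: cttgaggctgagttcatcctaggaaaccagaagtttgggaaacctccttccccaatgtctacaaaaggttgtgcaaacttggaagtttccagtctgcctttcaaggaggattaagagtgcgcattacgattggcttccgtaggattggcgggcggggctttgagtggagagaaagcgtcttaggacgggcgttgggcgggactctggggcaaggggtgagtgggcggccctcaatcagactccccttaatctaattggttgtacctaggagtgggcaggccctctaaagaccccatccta
Acaa1b: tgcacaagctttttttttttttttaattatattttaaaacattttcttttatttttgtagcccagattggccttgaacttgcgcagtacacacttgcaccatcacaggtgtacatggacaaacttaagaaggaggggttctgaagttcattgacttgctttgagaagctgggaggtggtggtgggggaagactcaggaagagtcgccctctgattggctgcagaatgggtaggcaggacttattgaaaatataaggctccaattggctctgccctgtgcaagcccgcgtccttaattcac

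Pex11a, a membrane protein that drives peroxisome division, was at 17.4, 18.4, 13.9 and 18.6 CPM in the 7-day HFD mice and at 48.6, 64.4, 78.8 and 50.3 CPM in the 20-week HFD mice. The groups were far apart, with a rise of 1.81 on the log2 scale (SE 0.17, edgeR adjusted p = 0.0007). Ehhadh, the bifunctional enzyme of the peroxisome, rose by 0.58 (SE 0.10, edgeR adjusted p = 0.0108), from 271 ± 15.02 to 408 ± 41.6 CPM (SD, n = 4). The other peroxins of the set, Pex16 and Pex19, which place membrane proteins, were not called, at 0.26 and 0.33 on the log2 scale (edgeR adjusted p = 0.249 and 0.0784).

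Hao2, a 2-hydroxyacid oxidase (chr3:98874519-98895376), was close to undetected in 3 groups. It passed the count filter only through the 20-week HFD mice, where it is high, so it was tested only in comparisons that held them. It had 1, 3, 3 and 5 counts in the 7-day HFD mice and 223, 130, 88 and 44 in the 20-week HFD mice, or 0.0314 to 0.199 against 1.78 to 8.42 CPM. No value at 20 weeks came near those at 7 days, and the log2 fold change was 5.33 (SE 0.64, edgeR adjusted p = 0.0026), a size that rests on 12 counts in all at 7 days. Hao1, its paralog, which oxidises glycolate, went the other way without being called by edgeR, at -0.43 on the log2 scale (edgeR adjusted p = 0.0896, and 0.0497 without HFD mouse 143). Abcd2 was at 14.4, 12.6, 44.9 and 14.8 CPM at 7 days and at 75.7, 79.9, 40.3 and 35.7 CPM at 20 weeks. The 44.9 CPM of mouse 144 lay among the 20-week values, and the log2 fold change of 1.41 (SE 0.49, edgeR adjusted p = 0.13) was not called by edgeR. Without mouse 144 edgeR called it (log2 fold change 2.05, edgeR adjusted p = 0.0216), and limma-voom called it with all mice (adjusted p = 0.0346), while DESeq2 did not (adjusted p = 0.0611).

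Acox3, a peroxisomal acyl-CoA oxidase for branched chains, was the 1 gene that fell by edgeR. It was at 56.4, 44.7, 50.6 and 48.0 CPM in the 7-day HFD mice and at 31.2, 35.1, 33.7 and 36.7 CPM in the 20-week HFD mice. The groups did not overlap, and the log2 fold change was -0.56 (SE 0.09, edgeR adjusted p = 0.0066). Its exons share 10.2% of their length with an antisense gene on the opposite strand. Phyh and Hao1, also peroxisomal, had the next lowest values, and for Phyh the log2 fold change was -0.38 (edgeR adjusted p = 0.135). Acox2, the oxidase of bile acid precursors, was at -0.07 (edgeR adjusted p = 0.745).

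Among the genes outside a single compartment, Ech1, a dienoyl-CoA isomerase found in both organelles, rose by 0.68 on the log2 scale (SE 0.11, edgeR adjusted p = 0.0084). It was at 301, 246, 251 and 300.1 CPM at 7 days and at 407, 425, 518 and 427 CPM at 20 weeks, with no overlap. Eci2, an enoyl-CoA isomerase and the other gene of both organelles, was not called by edgeR, at 0.10 on the log2 scale. Its values overlapped, at 216 to 237 CPM at 7 days and 198 to 314 CPM at 20 weeks. Pdk4, the kinase that switches off pyruvate dehydrogenase and so spares glucose, was at 2.10, 1.88, 1.9996 and 1.91 CPM in the 7-day HFD mice. In the 20-week HFD mice it was at 14.8, 18.7, 6.35 and 32.5 CPM, a wide spread that lay wholly above the 7-day values. Its log2 fold change was 3.18 (SE 0.45, edgeR adjusted p = 0.0072). The highest value was that of mouse 45, which carried the fat cell transcripts, and without that mouse the log2 fold change was 2.74 (edgeR adjusted p = 0.0027). Ppara itself, at 478 ± 88.5 and 598 ± 44.4 CPM (SD, n = 4), was not called (log2 fold change 0.31, edgeR adjusted p = 0.186), nor was Creb3l3, a liver transcription factor that acts beside it, at 0.00. Ucp2, an inner membrane carrier, was at -0.11.

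Fabp1 was 4553 ± 677 CPM in the 7-day and 6027 ± 503 CPM in the 20-week HFD mice (SD, n = 4), without overlap, and its log2 fold change of 0.39 was not called (edgeR adjusted p = 0.109). Of the 34 genes with a promoter in the RefSeq table (GRCm38.p6), Fabp1 was the only one with the looser form of DR1, the direct repeat of the nuclear receptor core site AGGTCA with 1 base between the copies, in which the fourth base of each copy may be any base. On either strand 0.451% of all 27025 genes with a promoter hold it, or 0.381% of all 32851 promoters. The strict DR1, which the looser form includes, was found in 0 of the 34 and in 0.0481% of all genes with a promoter. A single AGGTCA, which the strict DR1 contains, was found in 6 of the 34 genes, or 17.6%, and in 18.1% of all genes with a promoter. The Fabp1 promoter (chr6:71199629-71199928, plus strand) is shown with the match, which lies on the minus strand from 67 bases before the start, in capitals. A match describes letters and not binding.
Fabp1: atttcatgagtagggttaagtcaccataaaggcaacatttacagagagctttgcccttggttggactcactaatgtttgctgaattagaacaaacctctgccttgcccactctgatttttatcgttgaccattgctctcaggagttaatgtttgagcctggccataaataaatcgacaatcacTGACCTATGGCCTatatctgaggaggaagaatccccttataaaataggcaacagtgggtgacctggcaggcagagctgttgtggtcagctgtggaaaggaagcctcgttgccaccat

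**Figure D2:**
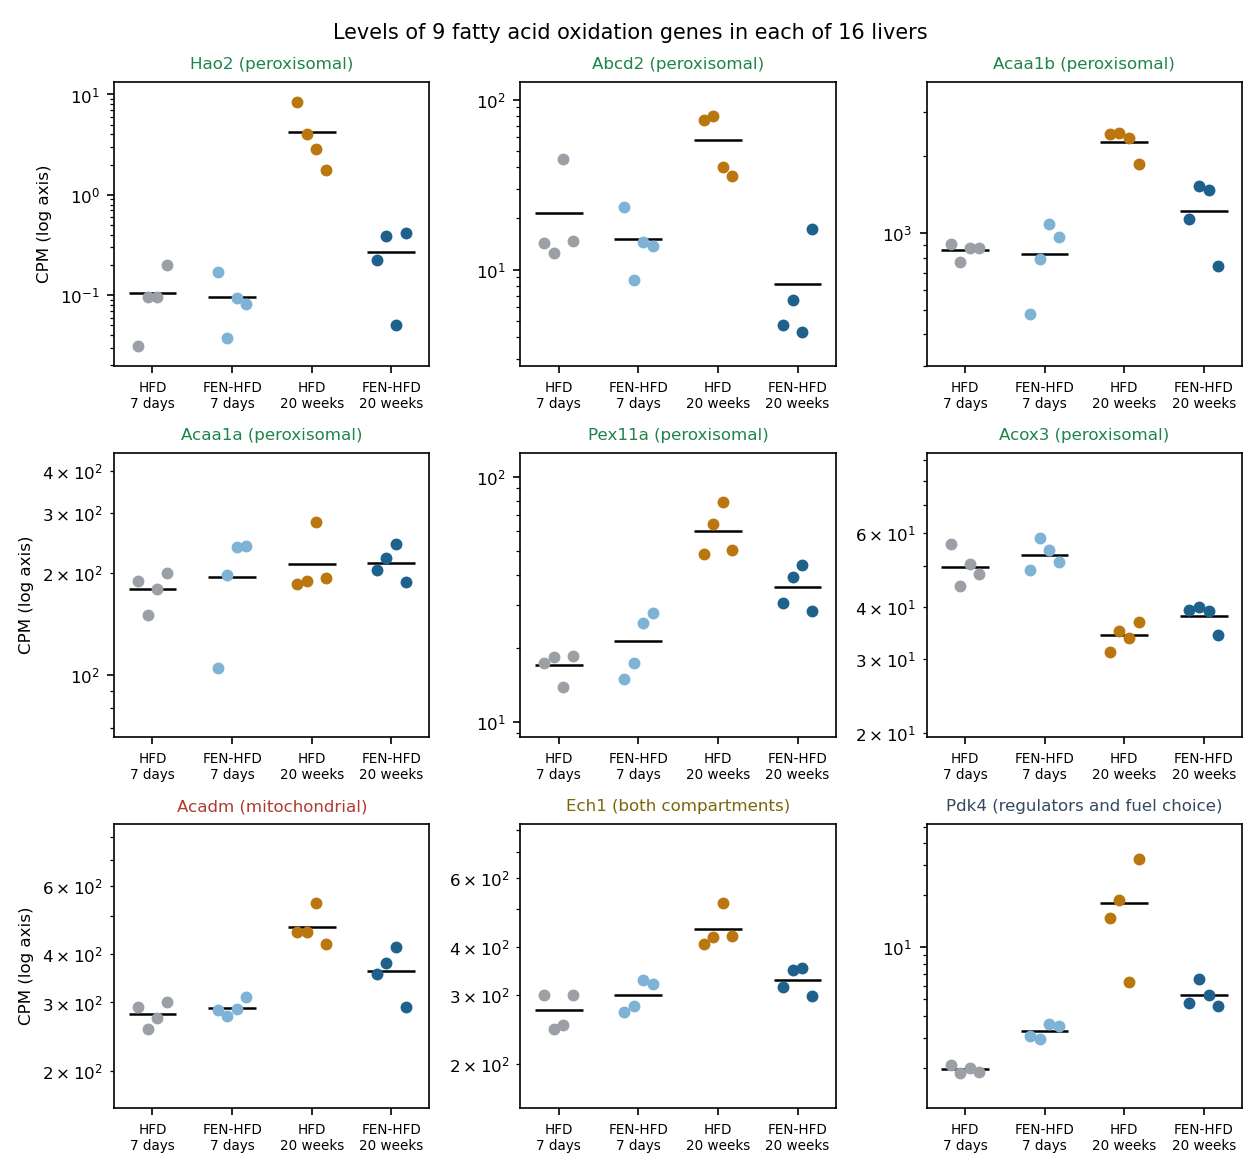
Levels of 9 genes in each liver, in CPM on logarithmic axes, with 1 point per mouse and a line at the mean of each group of 4. The mean of the 20-week HFD mice is the highest in Hao2, Abcd2, Acaa1b, Pex11a, Acadm, Ech1 and Pdk4, Acaa1a overlaps between groups, and Acox3 is lower in both 20-week groups.

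FEN-HFD was compared with HFD at 20 weeks to see whether fenretinide moved these genes. By edgeR 2 genes fell, Hao2 and Abcd2, both peroxisomal, and none rose, where 1.09% of the 13010 genes tested fell and 0.769% rose. Hao2 passed the filter here only through the HFD mice, where it is high, so its call cannot count as separate support. At an unadjusted p under 0.05, 14 of the 38 genes were lower and 1 was higher, where 10.05% and 8.501% of all genes tested were. DESeq2 called 11 lower and none higher, where it called 4.26% of the genes it tested lower, and limma-voom called 8 lower, where it called 4.95% of all genes lower. The log2 fold change was below 0 in 29 of the 38 genes, or 76.3%, against 48.7% of all genes tested. This lean was not particular to the set. Of 35 genes of oxidative phosphorylation and the citric acid cycle outside it, 28 were below 0 and 7 above. The share below 0 was 79.2% among further mitochondrial oxidation genes and 75.6% among further peroxisomal genes. The 4 FEN-HFD mice lay wholly below the 4 HFD mice in 13 of the 38 genes and above them in none, where 6.80% and 6.00% of all genes tested did so.

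Abcd2 (chr15:91145871-91192007) was at 4.75, 6.62, 4.32 and 17.3 CPM in the FEN-HFD mice, against 75.7, 79.9, 40.3 and 35.7 CPM in the HFD mice. The highest FEN-HFD value, from mouse 29, was below the lowest HFD value, and the log2 fold change was -2.91 (SE 0.49, edgeR adjusted p = 0.0286). Hao2 had 6, 10, 1 and 4 counts in the FEN-HFD mice against 44 to 223 in the HFD mice, a log2 fold change of -4.02 (SE 0.63, edgeR adjusted p = 0.0177). Neither call was firm. Without FEN-HFD mouse 21 neither gene was called, and Hao2 was lost without FEN-HFD mouse 24 as well, with an adjusted p of up to 0.0807 from edgeR. Abcd2 was lost without FEN-HFD mouse 22 or 24 or HFD mouse 25 or 28, with an adjusted p of up to 0.0948. The log2 fold change stayed between -3.46 and -2.70 for Abcd2 and between -4.37 and -3.46 for Hao2 when any 1 mouse was left out. Abcd2 was lowest, among the HFD mice, in mouse 45 with the fat cell transcripts, and without that mouse its log2 fold change was -3.08 (edgeR adjusted p = 0.0268).

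The other peroxisomal genes were not called by edgeR. Acaa1b was at 1137, 1525, 1474 and 746 CPM in the FEN-HFD mice, all under the lowest HFD mouse at 1869 CPM. Its log2 fold change was -0.90 (SE 0.22, edgeR adjusted p = 0.0689, with a range of 0.00183 to 0.199 over the alternative settings), and it was called without FEN-HFD mouse 29 (edgeR adjusted p = 0.0343). Pex11a, at 30.7, 39.3, 43.6 and 28.5 CPM, also lay wholly below the HFD mice, with a log2 fold change of -0.77 (SE 0.18, edgeR adjusted p = 0.0715). Ehhadh was at -0.39 (edgeR adjusted p = 0.22). Acox2 and Acox3 had positive log2 fold changes, of 0.35 and 0.16 (edgeR adjusted p = 0.16 and 0.338). Acaa1a, Decr2, a dienoyl-CoA reductase, Hao1 and Pex16 lay within 0.03 of 0 on the log2 scale.

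Of the 14 mitochondrial genes 13 had a log2 fold change below 0, though none was called by edgeR; DESeq2 called 5 and limma-voom 3 lower, and 6 had an unadjusted p under 0.05 in edgeR. Bdh1 was at 304, 331, 296 and 258 CPM in the FEN-HFD mice and at 402, 424, 404 and 365 CPM in the HFD mice. The groups did not overlap, and the log2 fold change was -0.43 (SE 0.11, edgeR adjusted p = 0.0749, with a range of 0.00185 to 0.201 over the alternative settings). Hadhb was at 148, 164, 186 and 125 CPM against 194, 210.3, 229.8 and 200.02 CPM, a log2 fold change of -0.42 (SE 0.13, edgeR adjusted p = 0.121). Hadha, its partner, was at -0.34 (edgeR adjusted p = 0.13), and both lay wholly below the HFD mice. Hadh was at -0.41 (SE 0.13, edgeR adjusted p = 0.125), likewise without overlap. Acadm and Acadl were at -0.38 and -0.29, whereas Acaa2 was at -0.02 and Etfb, the only one above 0, at 0.16. Part of the exons of Etfb, 69.1% of their length, also belong to the annotated gene Gm45233, which leaves its counts uncertain.

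Ech1 was at 316, 348, 352 and 299.6 CPM in the FEN-HFD mice, against 407 to 518 CPM in the HFD mice (log2 fold change -0.43, edgeR adjusted p = 0.0808). Pdk4, at 4.79, 6.54, 5.33 and 4.58 CPM, overlapped with the HFD group only through HFD mouse 33, at 6.35 CPM. Its log2 fold change was -1.75 (SE 0.43, edgeR adjusted p = 0.0771), which became -2.03 (edgeR adjusted p = 0.0188) without mouse 33. Fabp1 and Ppara lay wholly below the HFD mice as well, at -0.42 and -0.21 on the log2 scale (edgeR adjusted p = 0.20 and 0.313). Slc27a2 was at 0.33 and Acsl1, a long-chain acyl-CoA synthetase, at -0.19, with HFD values for Acsl1 that ran from 1154 to 2660 CPM.

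FEN-HFD mouse 29 had the lowest value of its group in 31 of the 38 genes, 13 of the 14 mitochondrial and 10 of the 15 peroxisomal ones, and the medians moved without it. The median log2 fold change of the mitochondrial genes was -0.30 with all mice and -0.19 without mouse 29, and that of the peroxisomal genes was -0.16 and -0.07. The number of genes that fell by edgeR was 2 with it and 3 without it. This comparison and that of HFD over time share the HFD mice at 20 weeks, so that their values are set side by side for each gene and their likeness was not measured.

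**Figure D3:**
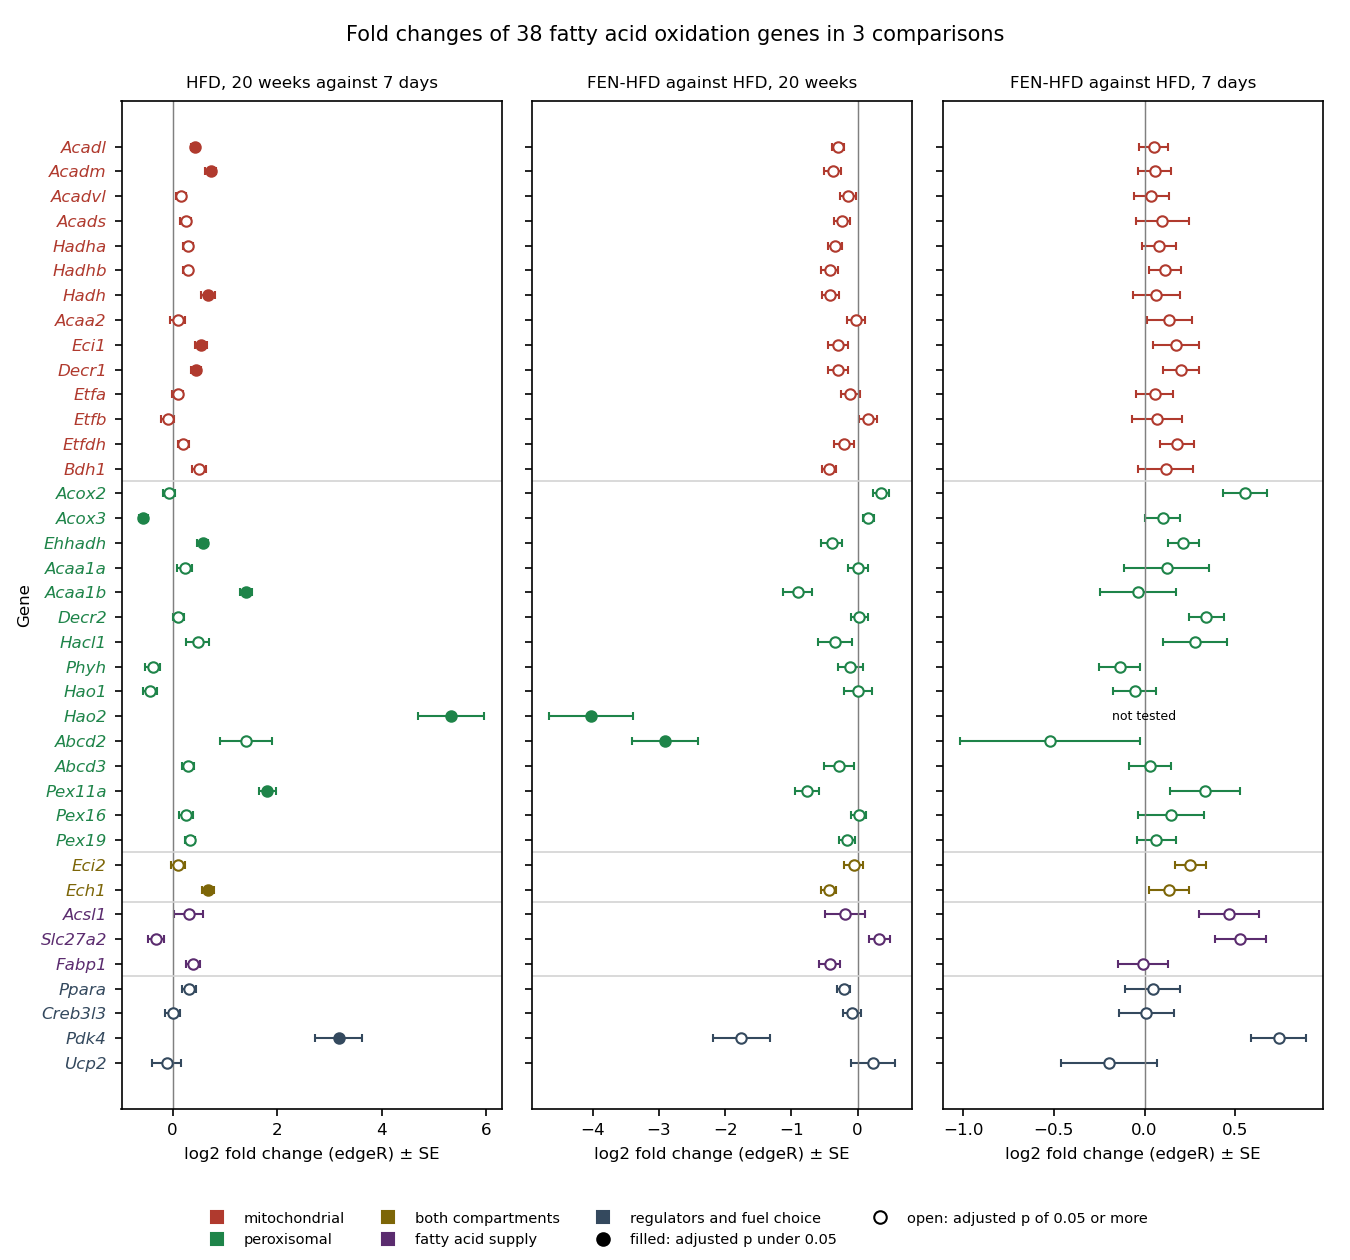
The log2 fold change from edgeR with its standard error for each of the 38 genes (rows, coloured by compartment or role) in 3 comparisons, each with its own horizontal axis. Filled points have an adjusted p under 0.05, which holds for 12 genes in HFD at 20 weeks against 7 days, for Hao2 and Abcd2 in FEN-HFD against HFD at 20 weeks and for no gene at 7 days, where Hao2 was not tested.

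At 7 days FEN-HFD and HFD differed by little. No gene of the 37 tested was called by edgeR (Hao2, with 1 to 6 counts per FEN-HFD mouse, was not tested), and 0.0988% of the 13157 genes tested were called, all higher. DESeq2 called 3 genes of the set higher, Acox2, Slc27a2 and Pdk4, where it called 0.352% of all genes it tested higher, and limma-voom called none. At an unadjusted p under 0.05 in edgeR, 7 genes were higher and none lower, where 2.63% and 2.45% of all genes tested were. In 8 genes the 4 FEN-HFD mice lay wholly above the HFD mice and in none wholly below, where 1.69% and 1.50% of all genes tested did so. The median log2 fold change was 0.09 for the mitochondrial and 0.11 for the peroxisomal genes, against -0.01 for all genes tested.

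Acox2 was at 335, 323, 279.6 and 359 CPM in the FEN-HFD mice and at 261, 190.1, 209 and 225 CPM in the HFD mice at 7 days. The groups did not overlap, and the log2 fold change was 0.55 (SE 0.12, edgeR adjusted p = 0.203, with a range of 0.0057 to 0.569 over the alternative settings). Decr2 was at 0.34 (SE 0.10, edgeR adjusted p = 0.52) and Ehhadh at 0.21 (SE 0.09, edgeR adjusted p = 0.877), both again without overlap. Slc27a2, at 2646 to 3459 CPM against 1765 to 2502 CPM, was at 0.53 (SE 0.14, edgeR adjusted p = 0.408), and Acsl1 at 0.46 (edgeR adjusted p = 0.758). Pdk4 was at 3.09, 2.96, 3.59 and 3.52 CPM in the FEN-HFD mice, all above the highest HFD value of 2.10 CPM, with a log2 fold change of 0.74 (SE 0.15, edgeR adjusted p = 0.162). In all of these genes the groups lay apart, and none passed the edgeR test.

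All 14 mitochondrial genes had a log2 fold change above 0 at 7 days, from 0.04 to 0.20, none with an unadjusted p under 0.05. Of 35 genes of oxidative phosphorylation and the citric acid cycle outside the set, 27 were above 0 as well and 8 below. Decr1 was at 0.20 (SE 0.10), Etfdh, which hands the electrons on to ubiquinone, at 0.18 (SE 0.09) and Eci1 at 0.17 (SE 0.13), each with an edgeR adjusted p of 0.9998. Only Etfdh was without overlap, at 378, 370.1, 384 and 363.4 CPM against 363, 295, 327 and 340 CPM, and there the nearest mice differed by under 1 CPM. Abcd2, at 23.3, 8.68, 14.5 and 13.8 CPM, overlapped with the HFD mice, and its log2 fold change was -0.52 (SE 0.50).

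The effects of fenretinide at the 2 durations were then compared with each other, as the log2 fold change at 20 weeks minus that at 7 days. No gene of the set was called by edgeR, where 0.0299% of the 13387 genes tested were called. At an unadjusted p under 0.05, 16 genes were lower and none higher, where 4.73% and 3.95% of all genes tested were. DESeq2 called 5 of the 38 lower (Hao2, Hadha, Pdk4, Ech1 and Pex11a), where it called 0.483% of all genes it tested lower, and limma-voom called 1, Abcd2, where it called 0.388% of all genes lower. The median difference was -0.40 for the mitochondrial and -0.30 for the peroxisomal genes, against 0.02 for all genes tested. Pdk4 had the smallest p of the set, with a difference of -2.49 (SE 0.48, edgeR adjusted p = 0.0781), and it was called without HFD mouse 33 or 45, with an adjusted p from 0.0012. Of the peroxisomal genes, the difference was -4.00 for Hao2 (SE 1.03, edgeR adjusted p = 0.205), -1.10 for Pex11a (SE 0.29, edgeR adjusted p = 0.23) and -0.60 for Ehhadh (SE 0.18, edgeR adjusted p = 0.307). Of the mitochondrial genes, it was -0.53 for Hadhb (SE 0.15, edgeR adjusted p = 0.29), -0.41 for Hadha (SE 0.13, edgeR adjusted p = 0.351) and -0.34 for Acadl (SE 0.11, edgeR adjusted p = 0.382).

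Last, the 2 fenretinide-fed groups were compared, a comparison added once the values had been seen. Of 37 genes tested, only Acox3 was called by edgeR, and it was lower at 20 weeks, where 0.332% of the 12949 genes tested fell and 0.849% rose. Acox3 was at 49.0, 58.5, 54.8 and 51.1 CPM in the 7-day FEN-HFD mice and at 39.2, 39.9, 39.1 and 34.2 CPM in the 20-week FEN-HFD mice, a log2 fold change of -0.49 (SE 0.09, edgeR adjusted p = 0.0307). The groups did not overlap, but the call was lost without FEN-HFD mouse 21, 22, 24, 62, 65 or 66, with an adjusted p of up to 0.115 from edgeR. Acadm was at 0.30 (SE 0.12, edgeR adjusted p = 0.403) and Hadh at 0.21 (SE 0.12, edgeR adjusted p = 0.694), where HFD alone had 0.73 and 0.67 over the same span. Pex11a, wholly higher at 20 weeks, was at 0.72 (SE 0.21, edgeR adjusted p = 0.186), where HFD alone had 1.81. Hadhb was at -0.24 (SE 0.12, edgeR adjusted p = 0.598) and Acox2 at -0.27 (SE 0.11, edgeR adjusted p = 0.489). The medians were near 0, at -0.04 for the mitochondrial and -0.08 for the peroxisomal genes, and they turned to 0.04 and 0.03 without FEN-HFD mouse 29. Without that mouse Acadm and Pdk4 were called higher (edgeR adjusted p = 0.04 and 0.0213) and Abcd2 joined Acox3 as lower (edgeR adjusted p = 0.0413).

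The mitochondrial and the peroxisomal genes were set against each other by the mean of log2(CPM + 0.1) over each list in each liver, relative to the HFD mice at 7 days. The mitochondrial mean was 0.34 ± 0.12 in the HFD mice at 20 weeks and 0.09 ± 0.19 in the FEN-HFD mice at 20 weeks (SD, n = 4). The peroxisomal mean was 0.66 ± 0.12 and 0.07 ± 0.16 in the same groups. Much of that wider gap came from a pair of low genes, since without Abcd2 and Hao2 the peroxisomal mean was 0.32 ± 0.15 and 0.13 ± 0.27. With those left out, the FEN-HFD and HFD mice at 20 weeks overlapped in the peroxisomal mean, at -0.22 to 0.37 and 0.22 to 0.54. In the mitochondrial mean they also overlapped, by a small margin, at -0.16 to 0.27 and 0.26 to 0.52. The FEN-HFD means rested in part on mouse 29, without which the mitochondrial mean was 0.18, the peroxisomal mean 0.12 and the peroxisomal mean without Abcd2 and Hao2 0.24. At 7 days the FEN-HFD mice were at 0.10 ± 0.10 in the mitochondrial and 0.09 ± 0.14 in the peroxisomal genes.

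The single genes of the compartments had unlike ranges. In HFD at 20 weeks against 7 days, the mitochondrial log2 fold changes ran from -0.09 to 0.73 with 13 of 14 above 0, while the peroxisomal ones ran from -0.56 to 5.33 with 11 of 15 above 0. In FEN-HFD against HFD at 20 weeks, they ran from -0.43 to 0.16 in the mitochondrion and from -4.02 to 0.35 in the peroxisome, with 13 of 14 and 9 of 15 below 0. The peroxisomal ends at 5.33 and -4.02 were those of Hao2. Without Abcd2 and Hao2 the peroxisomal ranges were -0.56 to 1.81 and -0.90 to 0.35. Among the 10 peroxisomal enzymes alone the median with HFD duration was 0.17. For FEN-HFD against HFD at 20 weeks the median of these enzymes was -0.05, with 5 of the 10 below 0. Over the 13 peroxisomal genes without Abcd2 and Hao2 it was -0.11, with 7 below 0. These are counts and medians over genes, not over mice, and no test was made of the lists. A list of 35 genes of oxidative phosphorylation and the citric acid cycle was read beside them, as transcripts only, since mitochondrial content was not measured. The mean of this list was 0.02 ± 0.08 in the HFD mice and -0.05 ± 0.19 in the FEN-HFD mice at 20 weeks (SD, n = 4). Without mouse 29 the FEN-HFD mean was 0.03. Of the 35 genes of this list 1, Cs, rose with HFD duration by edgeR, where 4.78% of all genes tested rose. Cs encodes the citrate synthase of the citric acid cycle.

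**Figure D4:**
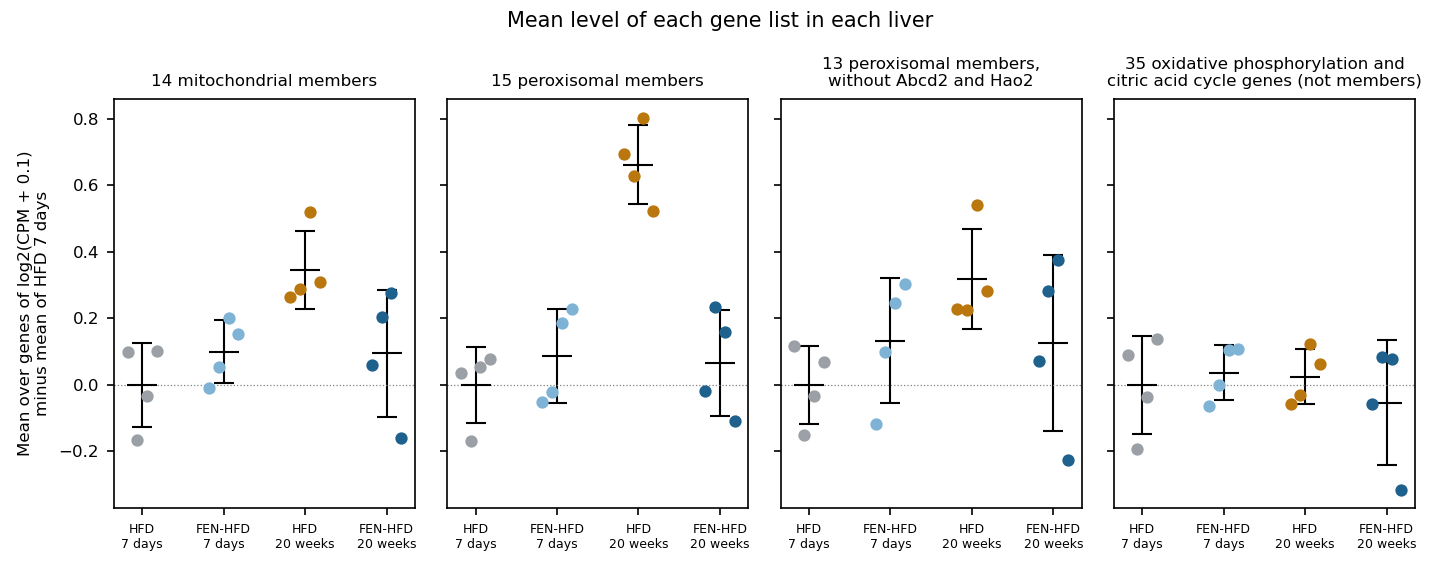
Mean of log2(CPM + 0.1) over each list, relative to the mean of the HFD mice at 7 days, with 1 point per liver and bars for the mean ± SD of 4 mice. The HFD mice at 20 weeks are highest in the 14 mitochondrial genes (0.34) and the 15 peroxisomal genes (0.66), the latter falling to 0.32 without Abcd2 and Hao2, while the means of the 35 oxidative phosphorylation and citric acid cycle genes lie between -0.05 and 0.04.

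Other genes of the pathway were counted from lists outside the 38. Beside them, edgeR called 4.78% of all genes tested higher and 2.73% lower with HFD duration. For fenretinide at 20 weeks it called 0.769% higher and 1.09% lower, and 8.501% and 10.05% were so at an unadjusted p under 0.05. There DESeq2 called 4.26% of the genes it tested lower, and limma-voom called 4.95% of 13010 genes lower and 484 higher. Of 24 further mitochondrial oxidation genes tested, 5 rose and 2 fell in HFD at 20 weeks against 7 days, and none rose and 2 fell in FEN-HFD against HFD at 20 weeks. Of 41 further peroxisomal genes, 10 rose and 1 fell with HFD duration, and for fenretinide at 20 weeks edgeR called none of them (2 were higher and 11 lower at an unadjusted p under 0.05), DESeq2 called 6 lower, and limma-voom 6 lower and 2 higher. Of 24 PPARα targets outside the set, 15 rose and none fell with HFD duration, with a median log2 fold change of 1.24. With fenretinide at 20 weeks 5 of the same 24 fell and none rose by edgeR, with a median of -0.80, while DESeq2 called 13 lower and limma-voom 13 lower and 1 higher. Of 17 receptors and coactivators, Pparg and Rxrg rose with HFD duration. None of these lists held a call at 7 days.

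Crat, the carnitine acetyltransferase that buffers acetyl-CoA, had the smallest p of these genes in both 20-week comparisons. It was 18.5 CPM on average in the HFD mice at 7 days, 102 CPM in those at 20 weeks and 42.6 CPM in the FEN-HFD mice at 20 weeks, with log2 fold changes of 2.45 (SE 0.17, edgeR adjusted p = 0.0002) and -1.26 (SE 0.10, edgeR adjusted p = 0.0015). Cd36, a fatty acid translocase, rose by 2.49 with HFD duration and fell by 1.35 with fenretinide on the log2 scale (edgeR adjusted p = 0.0023 and 0.0255). With HFD duration Vnn1, a pantetheinase, rose by 2.28, the acyl-CoA thioesterases Acot3 and Acot4 by 4.86 and 2.25, and Fabp2 by 0.76 (edgeR adjusted p of at most 0.0016). With fenretinide at 20 weeks Fgf21, a hormone made by the fasted liver, fell by 3.25, Fads2, a desaturase, by 1.65, the lipid droplet protein Plin2 by 1.04 and Retsat by 1.02 (edgeR adjusted p of at most 0.0383). Cpt1a, which admits long chains to the mitochondrion, was not called, at 0.30 and -0.27 (edgeR adjusted p = 0.311 and 0.336); it is named after its values were seen.

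Markers of liver cell types were read beside these counts. The summed level of 10 hepatocyte markers was 88824 to 99847 CPM in the HFD mice and 72883 to 85916 CPM in the FEN-HFD mice at 20 weeks. The members went both ways: Alb, Apob and Ttr lay wholly lower with fenretinide and Apoa1, Serpina1a, Fga and Fgb wholly higher, and the median log2 fold change was 0.24. None of the 10 was called by edgeR (4 were higher and 3 lower at an unadjusted p under 0.05), while 4 rose and 3 fell by DESeq2, and 2 rose and 2 fell by limma-voom. With HFD duration 5 of the 10 fell, among them Cps1 and Apoa1, while members of the oxidation set rose. The sum of 9 macrophage markers was 436 to 492 CPM in the HFD mice and 539 to 1287 CPM in the FEN-HFD mice at 20 weeks, with 1 called higher, and against 518 to 1087 CPM at 7 days 2 fell. With fenretinide at 20 weeks all 9 had a log2 fold change above 0, with a median of 0.64. At an unadjusted p under 0.05 in edgeR, 6 of the 9 were higher and 0 lower, where 8.501% and 10.05% of all genes tested were. In each of the 9, the highest FEN-HFD value at 20 weeks was that of mouse 29, whose library was 53.1% Rn45s. The sum of 1287 CPM is that of the same mouse, and the fold changes of these markers without it are not given here. Of 10 stellate cell markers, whose sum was 571 to 925 and 512 to 768 CPM at 20 weeks, 1 rose and 1 fell with fenretinide by edgeR. Their median log2 fold change was -0.91, with 8 of the 10 below 0. At an unadjusted p under 0.05 in edgeR, 6 were lower and 1 was higher. DESeq2 called 2 lower and 1 higher, and limma-voom 4 lower and 1 higher. Among the HFD mice at 20 weeks, the highest Des and Acta2 were those of mouse 45, which carried fat cell transcripts. Des was at 3.04 to 53.1 CPM in these HFD mice and 3.02 to 5.83 CPM in the FEN-HFD mice. The fold changes of the stellate cell markers without mouse 45 are not given here. Of 8 adipocyte markers, Plin4 and Cfd rose with HFD duration by edgeR, Plin4 from 3.04 to 4.90 CPM up to 48.1 to 126 CPM and Cfd from 0.0645 to 1.35 CPM up to 6.05 to 24.3 CPM. With fenretinide at 20 weeks Cfd was higher again, at 55.0 to 144 CPM (edgeR adjusted p = 0.038), and Plin4 was at 28.7 to 46.1 CPM (edgeR adjusted p = 0.0726). Car3 and Lipe were not called by edgeR in either comparison. Adipoq, Plin1, Lep and Retn were at or near 0 outside HFD mouse 45, and without that mouse 11 genes of the set still rose and 1 fell with HFD duration. The part of the other cell types in the results was not tested.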

How the data were processed

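Per the labels, total RNA of whole, flash-frozen liver was sequenced, and the labels and the study's methods name different library kits, so strand is unsettled. The authors deposited unnormalized counts of reads for each gene symbol, made from STAR 2.0 alignments to mm10. The counting program and annotation are not given in the sources used here. Replicates are separate mice. Counts were filtered with filterByExpr, scaled by TMM and compared with edgeR 4.0.16 (glmQLFit with robust=TRUE, glmQLFTest) in R 4.3.3, with Benjamini-Hochberg adjustment over all genes tested. Each comparison was fitted on its own 8 libraries, and the difference between effects on all 16. Alternatives were DESeq2 1.42.0, limma-voom (limma 3.58.1), other filters and scalings, and leaving out each mouse. The limma-voom runs used an estimated quality weight for each library, which edgeR and DESeq2 did not. The fits were tested on simulated data. Members and lists were chosen with earlier results of these data known. Full statistics are given for genes called, for the 3 mitochondrial and 3 peroxisomal members with the smallest p in each comparison, and for up to 6 called pathway genes outside the set. Sequences are from RefSeq, GRCm38.p6. Shared 75-base stretches were counted on annotated transcripts.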

Additional observations from a re-analysis of the deposited data

Results flagged for a closer look

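In 152 tests of single members within a group of 4 mice, 10 had 1 mouse far from the other 3, where 7.6 were expected by chance, since chance flags about 1 in 20 groups. Abcd2 was at 44.9 CPM in HFD mouse 144 at 7 days, against 12.6 to 14.8 CPM in the others, and in the comparison of HFD durations edgeR called Abcd2 without that mouse and not with it. Acaa1a was at 283 CPM in HFD mouse 33 at 20 weeks, against 185 to 194 CPM. Acadl was at 183 CPM in the same mouse, against 168 to 170.1 CPM, and at 161 CPM in FEN-HFD mouse 24 at 20 weeks, against 133 to 135 CPM. Hadha was at 352 CPM in HFD mouse 143 at 7 days, against 405 to 412 CPM, while FEN-HFD mouse 65 had 444 CPM and the rest of its group 402 to 409 CPM. In the same FEN-HFD mouse Ehhadh reached 329.6 CPM, and the other 3 had 306 to 310.1 CPM. Ucp2 was at 16.9 CPM in HFD mouse 143, against 8.09 to 8.77 CPM. In FEN-HFD mouse 29, whose library was 53.1% Rn45s, Acox3 was at 34.2 CPM, against 39.1 to 39.9 CPM, and Ppara at 469.9 CPM, against 529.8 to 536 CPM.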

How the results depend on the processing

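No called result changed sign under any alternative run. Of 579 values of single genes under an alternative, 537 kept their side of the threshold, 24 lost the call and 18 gained it, and of 348 counts and medians 317 stayed close to their main value. Close is a loose rule here. A median was close when it moved by less than the SD between mice of the list mean, and a count when it changed by less than a fixed ratio. The moves of the medians without FEN-HFD mouse 29 given above are close by this rule. For fenretinide at 20 weeks, 2 members fell by edgeR, but 11 by DESeq2, 8 by limma-voom, 9 in a fit of all 16 libraries, and 1 each without a filter and with at least 10 counts in every library, and 0 to 3 when 1 mouse was left out. At 7 days DESeq2 called 3 members higher and edgeR 0. For HFD duration, 11 members rose by edgeR, 16 by DESeq2 and 13 by limma-voom, and 1 member fell by edgeR and 2 by DESeq2 and by limma-voom, with 1 to 2 when 1 mouse was left out, and the peroxisomal median was 0.17 over enzymes alone. For the difference between fenretinide effects, DESeq2 called 5 members lower and limma-voom 1, with 0 to 1 when 1 mouse was left out. Between the FEN-HFD groups, 2 members rose and 2 fell by DESeq2, and 3 rose and 3 fell by limma-voom, with 0 to 2 in each direction when 1 mouse was left out. Among all genes, DESeq2 called 265 higher and 149 lower between these groups, and limma-voom 505 higher and 387 lower of 12949. For the fit of all 16 libraries the share of all genes called is not given here. The cause of these differences was not tested. That comparison, and the peroxisomal list without Abcd2 and Hao2, were added after the data were seen. No paired analysis was possible because no mouse number is shared between groups. Hao2 rests on 1 to 10 counts per library outside the HFD mice at 20 weeks, so the size of its fold change is imprecise, and counts of genes with near copies or overlapping exons are uncertain.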
